A study of Mus musculus with 12 samples.

Results

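The genes described here are the peroxisome proliferator-activated receptors (PPARs), a set of genes they are known to control, and genes typical of fat cells, in mouse prostate with and without Med1. The 10 genes were taken by name: the receptors Pparg, Ppara and Ppard, and the lipid genes Fabp4, Cd36, Lpl, Plin1, Plin2, Cpt1a and Adipoq. Each gene was read by the brightest probe set that carried its symbol alone, over all 12 arrays, and 9 of the 10 genes could be read in this way, out of 18194 genes in all. Plin1, the perilipin that coats fat cell droplets, was not analysed here. The 9 genes have 20 probe sets, and a further one shared by Ppard and another gene was not used.

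Total RNA came from ventral prostate of mice with a Med1 knockout, ventral prostate of wild-type mice, lateral prostate of mice labelled as Med1 knockouts, and lateral prostate of wild-type mice, all aged 16 weeks, with 3 arrays in each group. The labels name no treatment and no further allele. They do not give the deleted part of Med1, the cell type in which it was lost or the strain. They also do not tie the 3 arrays of a group to 3 mice, so the spread within a group may be technical. In the fit over all arrays, each p-value rests on that spread pooled over the groups of both lobes and moderated across genes. Leaving out a lateral array can therefore change a ventral call, and the reverse.

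PPARs are nuclear receptors that sense fatty acids. They bind DNA as dimers with retinoid X receptors, and Med1, a subunit of the Mediator complex, is a coactivator that they recruit through their ligand-binding domain. Pparg drives the formation of fat cells, Ppara drives fatty acid oxidation in liver, and Ppard does so in muscle and many other tissues.

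Before the results, the arrays were checked against their labels. Med1 averaged 8.86 ± 0.16 log2 units in ventral knockout and 9.43 ± 0.12 in ventral wild-type arrays (SD, n = 3 each). It was lower by 0.57 (-0.57 ± 0.12, limma adjusted p = 0.0119), which was no longer called without ventral knockout array 3 (limma adjusted p = 0.0518). In the lateral lobe it averaged 8.39 ± 0.049 in arrays labelled knockout and 8.52 ± 0.26 in wild-type arrays (limma adjusted p = 0.622), so those 3 arrays are called labelled knockout throughout. The lateral minus the ventral Med1 difference was 0.44 ± 0.18 and did not pass (limma adjusted p = 0.136). With the mean of its probe sets it was 0.49 and passed (limma adjusted p = 0.0132). The prostate epithelial markers Krt8 and Hoxb13 lay at 10.9 log2 units or above in all 12 arrays. For the seminal vesicle gene Svs2, one array stood apart in each of 2 groups. Lateral labelled-knockout array 3 read 8.71 where the other lateral labelled-knockout arrays read 11.89 and 11.99, and ventral wild-type array 3 read 7.55 where the other ventral wild-type arrays read 2.80 and 2.99. Results are therefore also given without these arrays where a call depends on them. Lateral wild-type arrays read 13.42, 13.35 and 13.4 for Svs2, above all 3 labelled-knockout arrays, so leaving out array 3 does not remove that difference. The mean of 7 seminal vesicle genes was 7.30 to 8.63 in lateral labelled-knockout and 10.6 to 10.7 in lateral wild-type arrays.

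In ventral prostate the 9 genes did not move as a group. Cpt1a rose in the knockout, Adipoq and Ppard fell, and the other 6 did not pass the test, a limma fit across all genes with a Benjamini-Hochberg adjusted p under 0.05. The share of all genes called in this comparison was 9.08%, with 5.88% higher and 3.2% lower. The median difference of the 9 genes was -0.051 log2 units, against -0.020 over all genes. The arrays of the 2 genotypes did not overlap for 5 of the 9 genes, Cpt1a, Cd36 and Fabp4 lying higher and Ppard and Adipoq lower in the knockout, and 29.5% of all genes had no such overlap. The plot of log2 signal in each array shows these positions.

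**Figure D1:**
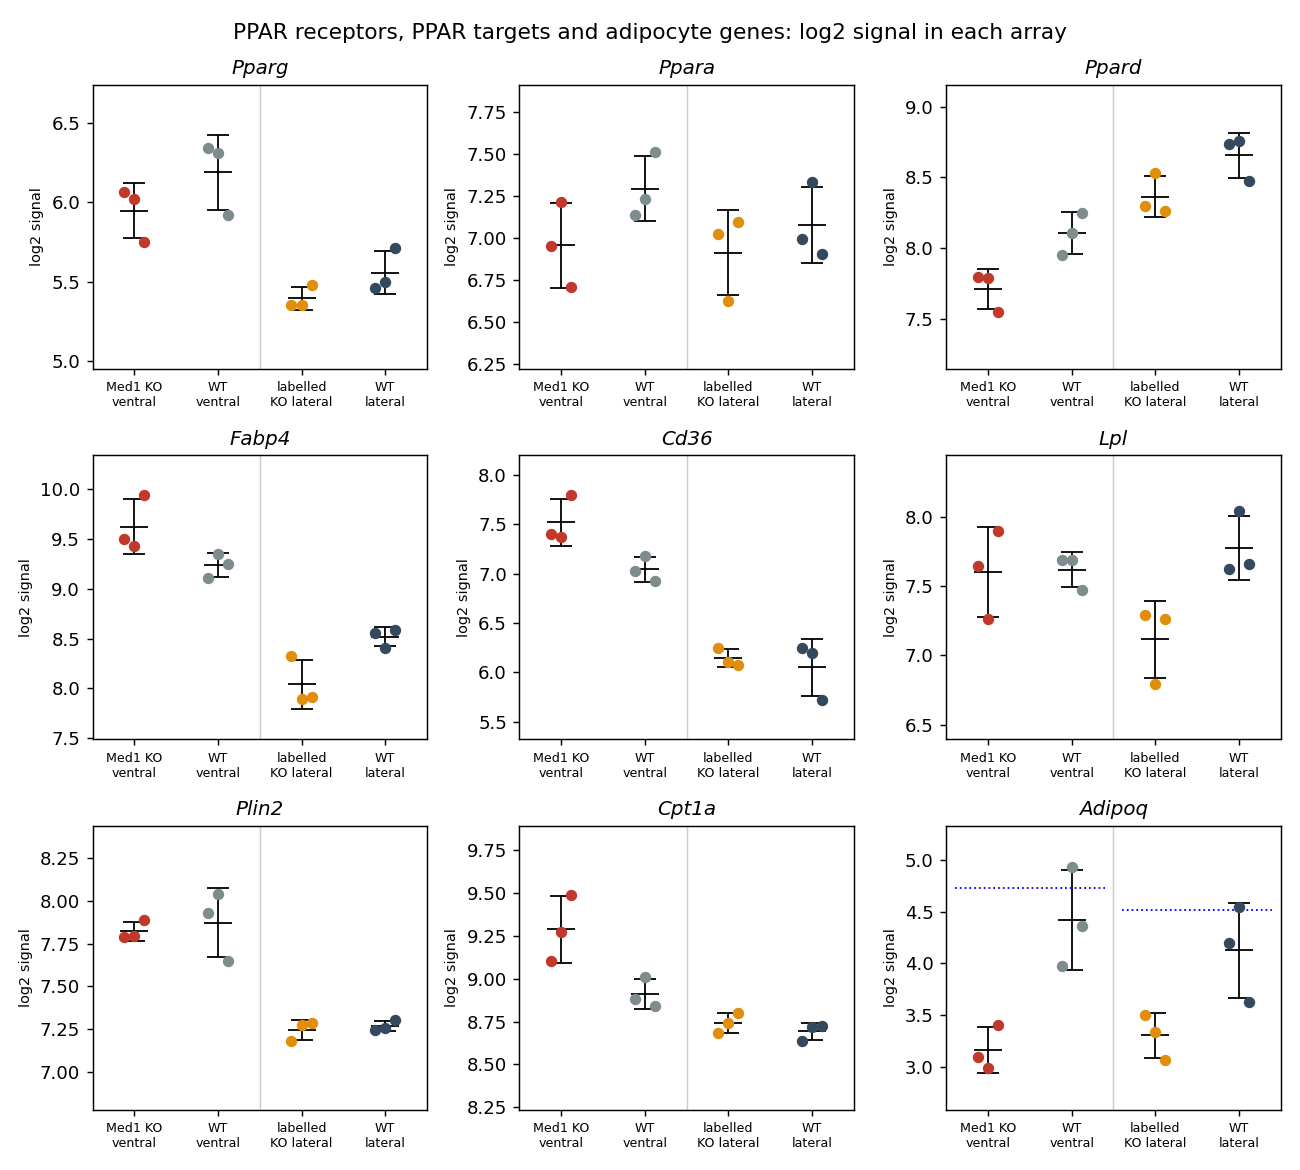
Log2 signal of the 9 genes in each array (points), with the mean and SD of each group (bars, n = 3), for ventral prostate (Med1 knockout and wild type) and lateral prostate (labelled knockout and wild type). The dotted lines in the Adipoq panel mark the signal under which 25% of probe sets lie, 4.73 in ventral and 4.52 in lateral arrays. Each panel has its own vertical axis that does not start at 0, so levels of different genes cannot be compared.

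Of the receptors, Ppard read 7.80, 7.79 and 7.55 log2 units in ventral knockout arrays, against 7.95, 8.11 and 8.25 in ventral wild-type arrays. All 3 knockout arrays lay below all 3 wild-type arrays. The difference was -0.39 ± 0.12 (SE), to 0.761 times the wild-type signal (limma adjusted p = 0.0483). The second Ppard probe set differed by 0.081 in the other direction (limma adjusted p = 0.736 among all probe sets). The Ppard call sat close to the threshold and was lost without any one of 9 arrays, at limma adjusted p of 0.104 without ventral wild-type array 2, 0.175 without ventral wild-type array 3, 0.0652, 0.0567 and 0.165 without ventral knockout arrays 1, 2 and 3, 0.0623 and 0.0572 without lateral wild-type arrays 1 and 2, and 0.0569 and 0.0567 without lateral labelled-knockout arrays 1 and 3. It was also lost with the 6 ventral arrays alone (0.0838), with the replicate number as a block (0.0515), with quantile normalization (0.0532), with every probe set tested (0.0607) and with the mean of the probe sets (0.319).

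The other receptors did not pass. Pparg read 6.07, 6.02 and 5.75 in ventral knockout arrays, against 6.34, 6.31 and 5.92 in ventral wild-type arrays. The genotypes overlapped, and the difference was -0.24 ± 0.12 (limma adjusted p = 0.244, 95% interval -0.51 to 0.023). Ppara read 6.95, 7.21 and 6.71 in ventral knockout arrays, against 7.14, 7.23 and 7.51 in ventral wild-type arrays, again with overlap, and differed by -0.34 ± 0.16 (limma adjusted p = 0.215). Of the 3 Ppara probe sets, 1 was higher in the ventral knockout and none passed.

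The retinoid X receptors, the partners without which PPARs do not bind DNA, gave no call. Differences in ventral prostate were 0.28 ± 0.13 for Rxra, 0.19 ± 0.091 for Rxrb and -0.054 ± 0.094 for Rxrg (limma adjusted p of 0.184, 0.224 and 0.770). Over all genes 5.88% passed as higher and 3.2% as lower. Of 19 measured partners, coactivators and corepressors of PPARs, 0 passed as higher and 1 as lower. That gene was Pprc1, a member of the PGC-1 coactivator family, with 8.43, 8.60 and 8.28 in ventral knockout arrays and 8.88, 8.91 and 9.01 in ventral wild-type arrays. Its difference was -0.49 ± 0.10 (limma adjusted p = 0.00797), and without ventral wild-type array 3 and lateral labelled-knockout array 3 together it was -0.46 (limma adjusted p = 0.0519). Ppargc1a, the founding member of that family, differed by 0.48 ± 0.14 in ventral prostate, just short of the threshold (limma adjusted p = 0.0513). In lateral prostate 0 of the 19 passed in either direction, and Ppargc1a had the smallest p, with 5.86, 5.73 and 6.09 in labelled-knockout arrays against 5.28, 5.48 and 5.69 in wild-type arrays (0.41 ± 0.14, limma adjusted p = 0.119). As the mean of its probe sets it differed by 0.52 and passed (limma adjusted p = 0.0121). The lateral differences of Rxra, Rxrb and Rxrg were -0.25, -0.014 and 0.24, none past the threshold (limma adjusted p of 0.308, 0.954 and 0.169).

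Among the genes of fatty acid uptake and binding, Cd36 and Fabp4 lay higher in ventral knockout without passing the test. Cd36, a fatty acid translocase of fat cells, endothelium and macrophages, read 7.40, 7.37 and 7.80 in ventral knockout arrays, against 7.03, 7.18 and 6.93 in ventral wild-type arrays. The difference was 0.48 ± 0.14 (limma adjusted p = 0.0557), and 2 of its 3 probe sets were higher. The call was gained when the dimmest 40% of genes were left out (limma adjusted p = 0.0354), with a trended and robust variance (0.0467), without ventral knockout array 2 (a difference of 0.55, 0.0479) and without lateral wild-type array 3 (0.0269).

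Fabp4, the fatty acid carrier of fat cells that capillary endothelium and macrophages also make, read 9.50, 9.43 and 9.93 in ventral knockout arrays, against 9.10, 9.34 and 9.25 in ventral wild-type arrays. Each knockout array lay above each wild-type array, but the difference of 0.39 ± 0.14 did not pass (limma adjusted p = 0.107). Lpl, the lipoprotein lipase that frees fatty acids from circulating triglyceride, read 7.65, 7.26 and 7.90 in ventral knockout arrays, against 7.69, 7.69 and 7.48 in ventral wild-type arrays. The 2 genotypes overlapped (-0.017 ± 0.17, limma adjusted p = 0.965). Plin2, the droplet coat protein of most tissues, read 7.79, 7.79 and 7.89 in ventral knockout arrays, against 7.93, 8.04 and 7.65 in ventral wild-type arrays. It overlapped as well (-0.051 ± 0.097, limma adjusted p = 0.790).

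Cpt1a, the carnitine palmitoyltransferase that admits long-chain fatty acids to mitochondria for oxidation, read 9.10, 9.27 and 9.49 in ventral knockout arrays, against 8.88, 9.01 and 8.84 in ventral wild-type arrays. All 3 knockout arrays lay above all 3 wild-type arrays. It rose by 0.38 ± 0.099 log2 units, 1.30-fold (limma adjusted p = 0.0287), and all 3 of its probe sets were higher, by 0.22 to 0.38. The call was lost without ventral wild-type array 1 (limma adjusted p = 0.0882), ventral wild-type array 3 (0.105), ventral knockout array 2 (0.0507) or ventral knockout array 3 (0.0929), without ventral wild-type array 3 and lateral labelled-knockout array 3 together (0.129), and with the 6 ventral arrays alone (0.0978).

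Adipoq, the hormone adiponectin that fat cells secrete, showed the largest difference among the 9 genes in ventral prostate. It read 3.09, 2.98 and 3.41 in ventral knockout arrays, against 3.97, 4.93 and 4.36 in ventral wild-type arrays. The knockout arrays all lay lower, and the wild-type arrays spread over nearly 1 log2 unit. The difference was -1.26 ± 0.24 (limma adjusted p = 0.00525), and it passed in every alternative in which Adipoq was tested, between -1.48 and -1.01. Both group means fell short of 4.73 log2 units, the mark under which 25% of the probe sets of ventral arrays lay, so the signal was low on both sides and no fold is given.

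Ppard, Adipoq and Cpt1a were the genes called in ventral prostate, and the RefSeq windows around their annotated starts are shown for that reason, from 250 bases before to 50 bases after the start (build GRCm38.p6). They lie on the plus strand at chr17:28232504-28232803 for Ppard, chr16:23146286-23146585 for Adipoq and chr19:3323051-3323350 for Cpt1a. Capitals mark AGGTCA, the core element of nuclear receptors such as PPARs, on either strand.
Ppard: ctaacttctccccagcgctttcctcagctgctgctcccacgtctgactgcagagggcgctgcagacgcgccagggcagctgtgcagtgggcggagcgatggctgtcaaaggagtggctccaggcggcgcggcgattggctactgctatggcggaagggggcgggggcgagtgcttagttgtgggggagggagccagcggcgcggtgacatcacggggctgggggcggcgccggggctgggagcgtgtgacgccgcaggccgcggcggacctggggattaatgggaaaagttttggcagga
Adipoq: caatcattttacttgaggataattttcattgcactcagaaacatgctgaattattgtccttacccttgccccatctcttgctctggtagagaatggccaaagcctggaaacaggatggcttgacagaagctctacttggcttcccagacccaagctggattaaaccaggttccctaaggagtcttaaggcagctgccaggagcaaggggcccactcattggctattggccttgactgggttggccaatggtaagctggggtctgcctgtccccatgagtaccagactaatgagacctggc
Cpt1a: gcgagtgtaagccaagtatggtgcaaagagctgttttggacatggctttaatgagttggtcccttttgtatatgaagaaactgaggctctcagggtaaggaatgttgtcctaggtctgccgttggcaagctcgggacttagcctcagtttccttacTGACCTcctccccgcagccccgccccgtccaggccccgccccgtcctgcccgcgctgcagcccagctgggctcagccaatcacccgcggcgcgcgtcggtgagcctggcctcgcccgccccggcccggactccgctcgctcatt
The element stands once in the Cpt1a window, 94 bases before the start on the opposite strand, and is not among the letters of the Ppard and Adipoq windows. It was found in 5 of 10 member windows, and in 16.3% of all 32851 windows. These 5 belong to 4 of the 8 members with a window in the table, Cpt1a, Cd36, Plin2 and Pparg. The direct repeat of 2 elements 1 base apart, AGGTCANAGGTCA on either strand, which overlaps the single element and is the arrangement that PPAR dimers bind, was in 0 member windows and in 0.0396% of all windows. A match describes the letters only and is not evidence of binding.

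Other PPAR target genes of fatty acid oxidation and fuel choice were examined beside Cpt1a. They are called oxidation genes for short, though some, such as Vnn1, Angptl4 and Fgf21, are not enzymes or carriers of oxidation. Of 23 measured, 8 passed as higher in ventral knockout and 0 as lower, beside 5.88% and 3.2% of all genes. There were 20 differences above 0 and 3 below, and the median difference was 0.22 log2 units, against -0.020 over all genes. The mean log2 signal of the list was 8.41 to 8.46 in ventral knockout arrays and 8.15 to 8.23 in ventral wild-type arrays. Genotypes did not overlap for 15 of the 23, with 14 higher and 1 lower in the knockout, beside 29.5% of all genes without overlap. The plot of differences of the oxidation genes shows each of the 23.

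Vnn1, the pantetheinase vanin-1, read 7.53, 7.51 and 7.52 in ventral knockout arrays, against 6.80, 6.89 and 6.52 in ventral wild-type arrays, a rise of 0.79 ± 0.14 (limma adjusted p = 0.00267). Slc25a20, which carries acylcarnitines across the inner mitochondrial membrane and so acts in the same shuttle as Cpt1a, read 9.89, 9.94 and 10.09 in ventral knockout arrays, against 9.43, 9.51 and 9.44 in ventral wild-type arrays, a rise of 0.51 ± 0.093 (limma adjusted p = 0.00371). For both genes all knockout arrays lay above all wild-type arrays. The acyl-CoA thioesterase Acot1 rose by 0.55 ± 0.11 (limma adjusted p = 0.00609) and the long-chain acyl-CoA dehydrogenase Acadl by 0.43 ± 0.090 (0.00941). The Acadl call was lost with the mean of its probe sets (0.30, limma adjusted p = 0.135) and without ventral wild-type array 3 and lateral labelled-knockout array 3 together (0.0651). Cpt2, the inner-membrane partner of Cpt1a, was 0.29 higher and did not pass, and Fgf21, a hormone gene that Ppara controls in liver, was the lowest of the list at -0.41, also not passing. The Fgf21 mean in ventral knockout, 4.71, lay under the ventral mark of 4.73, so its signal was low there.

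The count of 8 was 5 without ventral wild-type array 1, 5 without ventral wild-type array 3, 4 without that array and lateral labelled-knockout array 3 together, and 5 with the 6 ventral arrays alone. It was 2 when a difference of at least 1.5-fold was also asked for. Acadm, one of the 8 and named after its values were seen, lay at the threshold (0.36 ± 0.11, limma adjusted p = 0.0489). Its call was lost with 11 of the 12 single arrays left out, at limma adjusted p up to 0.160 without ventral wild-type array 3, and with the replicate block (0.0758), quantile normalization (0.0760), median centring (0.0601), every probe set tested (0.0621) and the 6 ventral arrays alone (0.127). In ventral knockout arrays 8 of 12 smooth muscle markers and 5 of 12 fibroblast and matrix markers also passed as higher and 0 as lower. Over all genes these shares were 5.88% higher and 3.2% lower. The mean log2 signal of the smooth muscle list was 10.3 to 10.5 in ventral knockout and 9.76 to 10.04 in ventral wild-type arrays. That of the luminal epithelial list was 11.98 to 12.01 in ventral knockout and 11.94 to 12.00 in ventral wild-type arrays, with 0 of 9 passed. Whether these lists have a part in the oxidation genes was not tested.

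**Figure D2:**
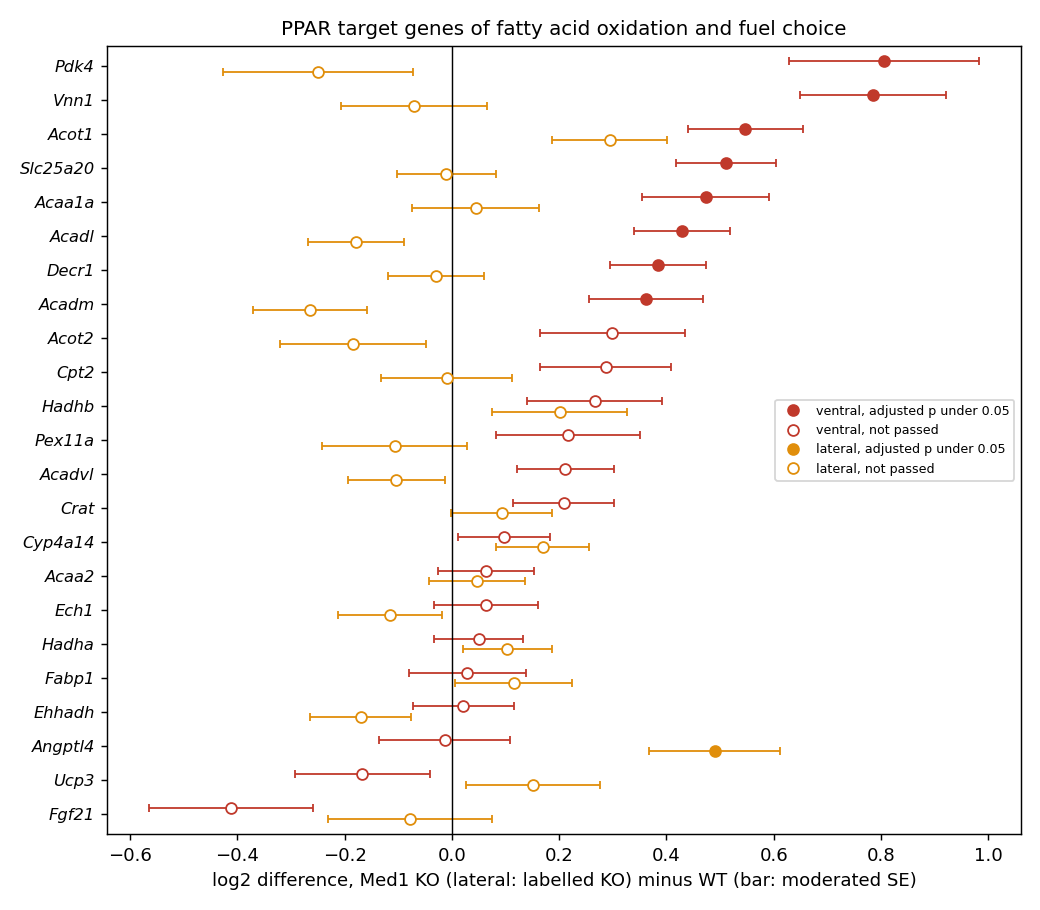
Log2 difference of 23 PPAR target genes of fatty acid oxidation and fuel choice, Med1 knockout minus wild type in ventral (red) and labelled knockout minus wild type in lateral (orange) prostate, with moderated standard errors. Filled points passed at a limma adjusted p under 0.05, 8 in ventral and 1 in lateral prostate, and in ventral prostate all 8 lie to the right of 0.

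Adipoq was set beside 19 other fat cell markers. In ventral knockout 0 of them passed as higher and 2 as lower, beside 5.88% and 3.2% of all genes. The median difference was -0.10, with 14 below 0 and 5 above. Car3, a carbonic anhydrase abundant in fat cells and in slow skeletal muscle, read 6.20, 5.72 and 6.36 in ventral knockout arrays, against 7.47, 8.29 and 7.35 in ventral wild-type arrays. It fell by 1.61 log2 units (-1.61 ± 0.21, limma adjusted p = 3.91e-04). As the mean of its probe sets the difference was -0.60, which still passed. Lep, the hormone leptin, read 4.42, 4.70 and 4.75 in ventral knockout arrays, against 5.04, 5.16 and 4.99 in ventral wild-type arrays, so that no knockout array reached a wild-type array. Its difference was -0.44 ± 0.10 (limma adjusted p = 0.0174), and it was lost without ventral wild-type array 2 (0.0640) or ventral knockout array 1 (0.0680) and with the 6 ventral arrays alone (0.0581). Its knockout mean of 4.63 lay under the low-signal mark.

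The mean log2 signal of the 19 markers was 6.37 to 6.39 in ventral knockout arrays and 6.54 to 6.58 in ventral wild-type arrays. This mean includes Car3, the largest difference of the list at -1.61, and the markers did not all move one way. Ventral genotypes did not overlap for 6 lower and 3 higher markers, beside 29.5% of all genes without overlap. The 3 higher ones were Slc2a4 (0.26), Agpat2 (0.25) and Plin4 (0.096), none past the threshold. In bulk tissue, fewer cells of a type and less RNA per cell cannot be told apart. Of the 19 markers 3 had both ventral group means under the low-signal mark, and 3 had both lateral ones. Cidea had both means under the mark in each lobe.

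Markers of other tissues moved too. The skeletal muscle myosin Myh4 read 4.85, 4.90 and 4.77 in ventral knockout arrays and 6.58, 6.42 and 6.70 in ventral wild-type arrays. Of 9 skeletal muscle markers 3 passed as lower in ventral knockout and 0 as higher, beside 3.2% and 5.88% of all genes. Their mean log2 signal was 6.10 to 6.25 in ventral knockout, against 6.31 to 6.55 in ventral wild-type arrays. The part of skeletal muscle in the differences of Car3 and Adipoq was not tested. Of 14 endothelial markers 0 passed in either direction, and the mean of that list was 6.12 to 6.30 in ventral knockout and 5.98 to 6.15 in ventral wild-type arrays. Of 14 macrophage markers 3 passed as higher in ventral knockout and 0 as lower, beside 5.88% and 3.2% of all genes. The 3 were Csf1r (0.61), Mrc1 (0.48) and C1qb (0.48). The list had 7 differences above 0 and 7 below, with a median of 0.012, and the macrophage marker Adgre1 was at -0.086. The list mean was 7.16 to 7.20 in ventral knockout, against 7.01 to 7.15 in ventral wild-type arrays. The part of endothelium and macrophages in Cd36 and Fabp4, which both cell types express, was not tested. The plot of marker list means gives these levels in each array.

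**Figure D3:**
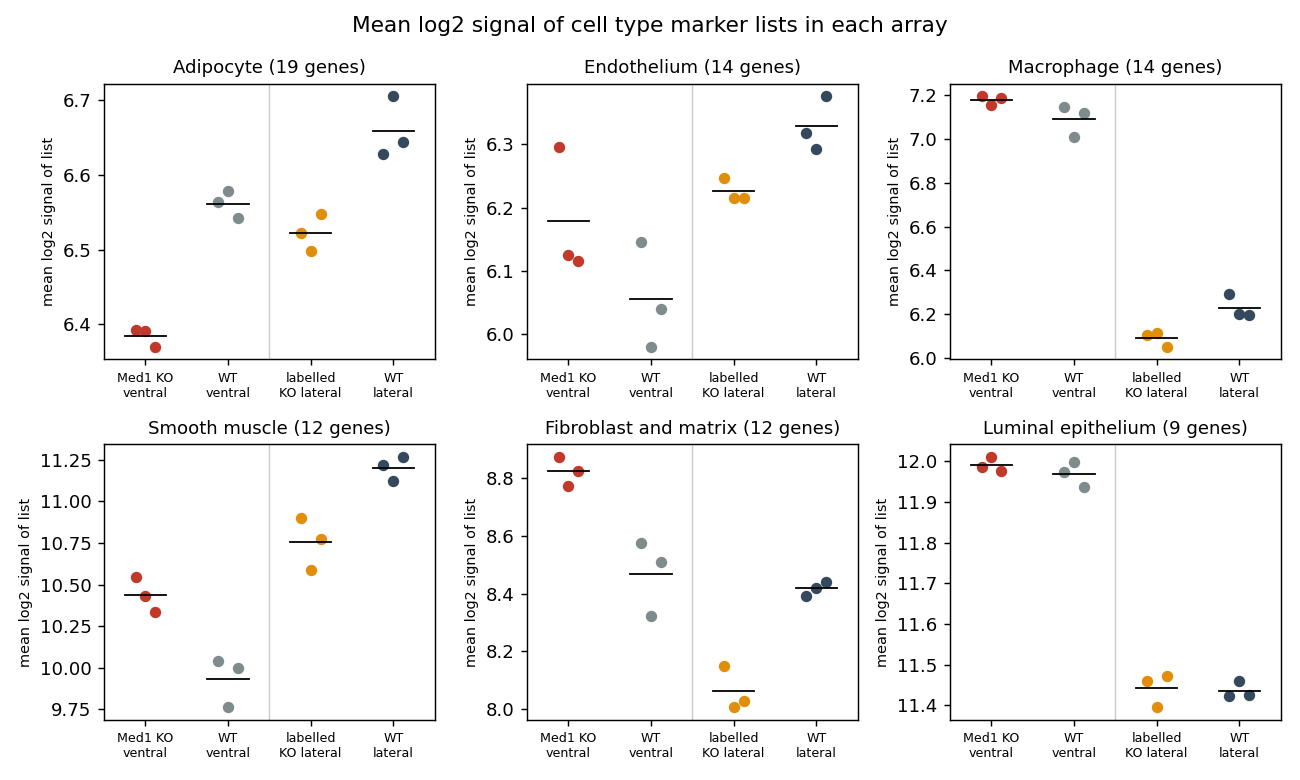
Mean log2 signal of 6 cell type marker lists in each array (points) with the mean of each group (lines, n = 3). The mean of the fat cell list is lower in ventral knockout and in lateral labelled-knockout arrays than in their wild types. Of its 19 genes, 5 differ above 0 in ventral and 7 in lateral prostate. The means of the smooth muscle and fibroblast lists are higher in ventral knockout and lower in lateral labelled-knockout arrays. The vertical axes differ between panels and do not start at 0.

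The relatives of the lipid genes were 29 measured genes of fatty acid uptake, binding, droplet coating and lipolysis. In ventral knockout 0 passed as higher and 3 as lower, beside 5.88% and 3.2% of all genes. Mgll, the monoglyceride lipase of the last step of lipolysis, read 8.18, 8.15 and 8.21 in ventral knockout arrays, against 8.72, 8.70 and 9.38 in ventral wild-type arrays (-0.75 ± 0.15, limma adjusted p = 0.00660). Its highest array was ventral wild-type array 3, and the difference passed under every alternative run, between -0.87 and -0.53. The adiponectin receptor Adipor2 (-0.32 ± 0.092, limma adjusted p = 0.0437) and the droplet coat protein Plin3 (-0.33 ± 0.098, 0.0485) lay at the threshold. Each left-out array but 2 for Adipor2 and but 1 for Plin3 ended the call, with limma adjusted p up to 0.155 without ventral wild-type array 3 for Adipor2 and up to 0.158 without ventral knockout array 3 for Plin3. Both calls were also lost with the replicate block (0.0663 for Adipor2 and 0.0519 for Plin3) and with the 6 ventral arrays alone (0.105 and 0.0852), so that the list's count was 1 in either setting.

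In lateral prostate 1 of the 9 genes passed, Lpl, which fell. Of all genes 5.03% were called there, with 1.62% higher and 3.42% lower in the labelled knockout. Lpl read 7.29, 6.79 and 7.26 in lateral labelled-knockout arrays, against 7.63, 8.05 and 7.66 in lateral wild-type arrays. No labelled-knockout array reached a wild-type array. The difference was -0.66 ± 0.17 log2 units, to 0.632 times the wild-type signal (limma adjusted p = 0.0399), and the second Lpl probe set gave -0.64 (limma adjusted p = 0.0172 among all probe sets). The call was lost without any one of 8 arrays, at limma adjusted p of 0.0530 and 0.0518 without ventral wild-type arrays 1 and 2, 0.0526 without ventral knockout array 1, 0.0564, 0.157 and 0.0745 without lateral wild-type arrays 1, 2 and 3, and 0.173 and 0.0596 without lateral labelled-knockout arrays 2 and 3. It was also lost with the replicate number as a block (0.0562) and with every probe set tested (0.0505).

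Fabp4 read 8.32, 7.89 and 7.91 in lateral labelled-knockout arrays, against 8.56, 8.41 and 8.59 in lateral wild-type arrays. All labelled-knockout arrays lay lower, but the difference of -0.48 ± 0.14 did not pass (limma adjusted p = 0.0730). Adipoq read 3.51, 3.34 and 3.07 in lateral labelled-knockout arrays, against 4.20, 4.55 and 3.63 in lateral wild-type arrays, also without overlap. The difference of -0.82 ± 0.24 did not pass (limma adjusted p = 0.0678), and both group means fell short of the lateral mark of 4.52 log2 units. Lpl, Fabp4 and Adipoq were the 3 of 9 genes whose lateral arrays did not overlap, all 3 lower in the labelled knockout, beside 26.9% of all genes without overlap. Fabp4 passed without ventral knockout array 3 (limma adjusted p = 0.0295) or lateral labelled-knockout array 1 (0.0246), and Adipoq without ventral wild-type array 1 (0.0491), ventral wild-type array 2 (0.0374) or lateral wild-type array 3 (0.0242).

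The receptors overlapped between the lateral genotypes. Ppard read 8.30, 8.53 and 8.26 in labelled-knockout arrays, against 8.74, 8.75 and 8.47 in lateral wild-type arrays (-0.29 ± 0.12, limma adjusted p = 0.173). Pparg read 5.35, 5.35 and 5.48 in labelled-knockout arrays, against 5.46, 5.50 and 5.71 in lateral wild-type arrays (-0.16 ± 0.12, limma adjusted p = 0.518). Ppara read 7.02, 6.62 and 7.09 in labelled-knockout arrays, against 6.995, 7.33 and 6.90 in lateral wild-type arrays (-0.16 ± 0.16, limma adjusted p = 0.620). In each case the labelled-knockout mean was the lower, by less than the test could call.

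The remaining genes were near 0 in lateral prostate. Cd36 read 6.25, 6.11 and 6.08 in labelled-knockout arrays, against 6.25, 6.19 and 5.72 in lateral wild-type arrays (0.090 ± 0.14, limma adjusted p = 0.784). Cpt1a read 8.68, 8.74 and 8.80 in labelled-knockout arrays, against 8.64, 8.72 and 8.73 in lateral wild-type arrays (0.047 ± 0.099, limma adjusted p = 0.841, 95% interval -0.16 to 0.26). Plin2 read 7.18, 7.27 and 7.29 in labelled-knockout arrays, against 7.25, 7.26 and 7.30 in lateral wild-type arrays (-0.023 ± 0.097, limma adjusted p = 0.926). The median difference of the 9 genes was -0.16, against -0.0025 over all genes.

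**Figure D4:**
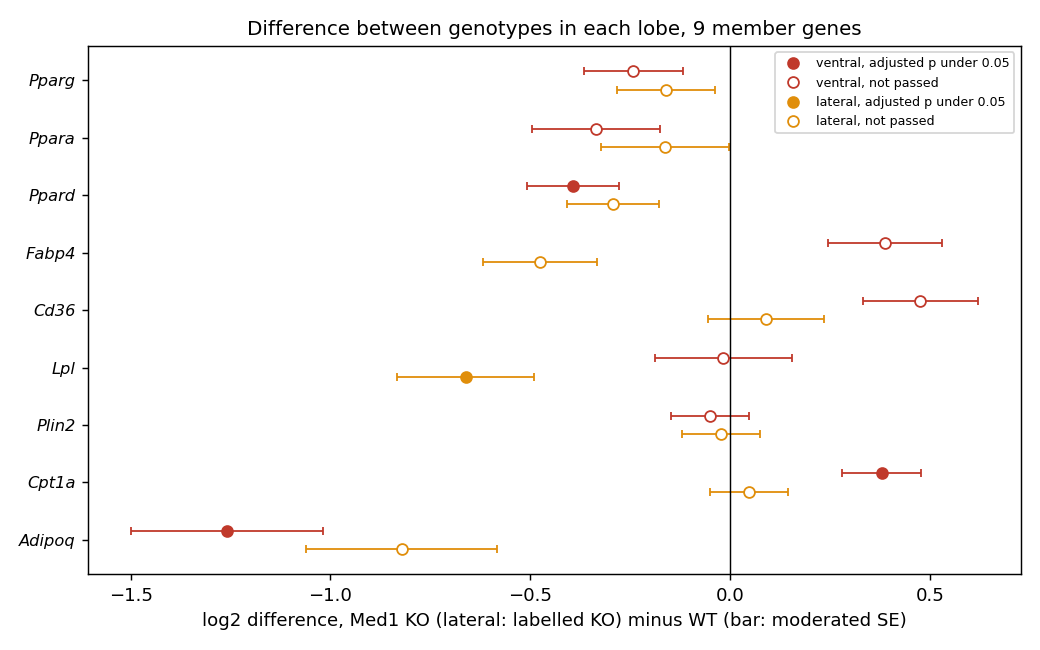
Log2 difference of the 9 genes, Med1 knockout minus wild type in ventral (red) and labelled knockout minus wild type in lateral (orange) prostate, with moderated standard errors. Filled points passed at a limma adjusted p under 0.05: Ppard, Cpt1a and Adipoq in ventral and Lpl in lateral prostate. Fabp4 lies on opposite sides of 0 in the 2 lobes.

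Of the 23 genes of the oxidation list 1 passed in lateral prostate, where 5.03% of all genes did. That gene was Angptl4, the secreted inhibitor of Lpl. It read 6.41, 6.38 and 5.997 in labelled-knockout arrays, against 5.61, 5.97 and 5.74 in lateral wild-type arrays, with no overlap (0.49 ± 0.12, limma adjusted p = 0.0341). The call was lost without lateral wild-type array 1 (0.125) or 3 (0.116) and without lateral labelled-knockout array 1 (0.0997) or 2 (0.141), with the 6 lateral arrays alone (0.0787) and with the mean of its probe sets (0.105). In ventral prostate Angptl4 differed by -0.014. The median difference of the list in lateral prostate was -0.010.

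Of the 19 fat cell markers 2 passed as lower in lateral labelled knockout and 0 as higher, beside 3.42% and 1.62% of all genes. The median difference was -0.053. Slc2a4, the insulin-regulated glucose transporter GLUT4 of fat and muscle, read 7.31, 7.12 and 7.13 in labelled-knockout arrays, against 7.99, 7.97 and 7.93 in lateral wild-type arrays (-0.78 ± 0.081, limma adjusted p = 5.23e-05). Plin4, a droplet coat protein, read 7.86, 7.63 and 7.71 in labelled-knockout arrays, against 8.28, 8.32 and 8.34 in lateral wild-type arrays (-0.58 ± 0.084, limma adjusted p = 8.83e-04). For both, the lowest wild-type array lay well above the highest labelled-knockout array, and both passed without any one array. The mean of the list was 6.50 to 6.55 in lateral labelled-knockout and 6.63 to 6.71 in lateral wild-type arrays, with 12 differences below 0 and 7 above. The plot of differences of the fat cell markers shows that Car3 and Lep, which passed in ventral prostate, were at -0.45 and 0.049 in lateral prostate and did not pass there.

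**Figure D5:**
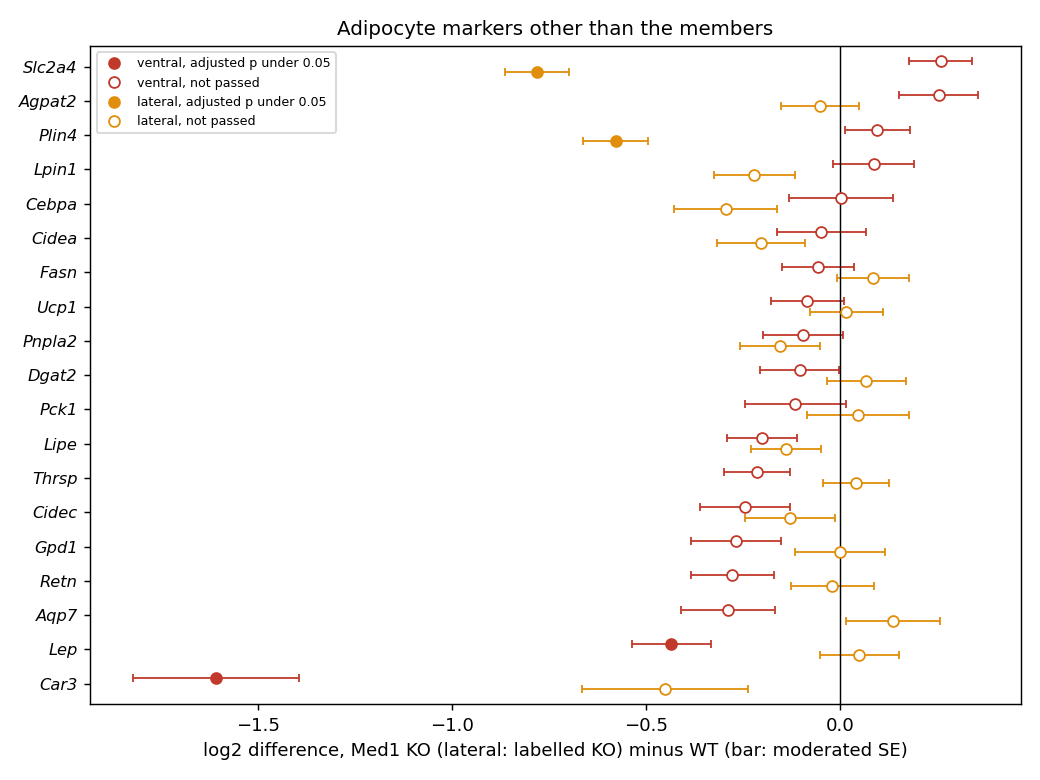
Log2 difference of 19 fat cell markers, Med1 knockout minus wild type in ventral (red) and labelled knockout minus wild type in lateral (orange) prostate, with moderated standard errors. Filled points passed at a limma adjusted p under 0.05, all of them below 0: Car3 and Lep in ventral, Slc2a4 and Plin4 in lateral prostate.

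Among the 29 relatives of the lipid genes, lateral labelled knockout had 2 higher and 2 lower, beside 1.62% and 3.42% of all genes. The 2 not yet named were Slc27a2, a fatty acid transporter and acyl-CoA synthetase, and Cdh13, a surface protein that binds adiponectin. Slc27a2 read 4.59, 5.06 and 4.99 in labelled-knockout arrays, against 3.96, 3.47 and 4.14 in lateral wild-type arrays (1.02 ± 0.17, limma adjusted p = 0.00225). The wild-type mean of 3.86 was below that mark, so the difference is set against a dim group. Cdh13 read 7.22, 7.41 and 7.71 in labelled-knockout arrays, against 8.05, 8.15 and 8.09 in lateral wild-type arrays (-0.65 ± 0.13, limma adjusted p = 0.00744), and its probe sets averaged -0.43 and passed.

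In lateral labelled knockout 5 of 12 smooth muscle, 6 of 12 fibroblast and matrix and 5 of 7 seminal vesicle markers passed as lower, and 0 of each as higher. Over all genes these shares were 3.42% lower and 1.62% higher. The smooth muscle list had a mean of 10.6 to 10.9 log2 units in lateral labelled-knockout and 11.1 to 11.3 in lateral wild-type arrays. The endothelial list lay at 6.21 to 6.25 in lateral labelled-knockout arrays, against 6.29 to 6.38 in lateral wild-type arrays, with 1 of 14 passed, Sox18 (-0.69), and 0 of 14 macrophage markers passed. Of the skeletal muscle markers 2 passed as higher and 1 as lower. Their part in the lateral differences of Lpl, Fabp4, Slc2a4, Plin4 and Cdh13 was not tested.

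Whether the knockout effect differed between the lobes was tested directly, as the lateral minus the ventral difference. Of the 9 genes 1 passed, Fabp4, and of all genes 9.31%, with 6.51% having the lateral effect below the ventral one. The Fabp4 difference was -0.48 in lateral and 0.39 in ventral prostate, an effect lower in lateral by 0.86 ± 0.20 log2 units (-0.86, limma adjusted p = 0.0158). All 3 lateral labelled-knockout arrays lay below their wild-type arrays and all 3 ventral knockout arrays above theirs. The second bright Fabp4 probe set gave -0.69 (limma adjusted p = 0.0783 among all probe sets), while the 2 dim ones gave 0.34 and -0.0056. The call was kept without any one array and lost without ventral wild-type array 3 and lateral labelled-knockout array 3 together (-0.81, limma adjusted p = 0.0753) and with the mean of all 4 probe sets (-0.31, 0.113). The difference between lobes was -0.64 for Lpl (limma adjusted p = 0.114), -0.33 for Cpt1a (0.155), -0.39 for Cd36 (0.255) and 0.44 for Adipoq (0.443), and for Ppara, Ppard, Pparg and Plin2 it lay between 0.028 and 0.17 (0.668 to 0.920).

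Of the 23 oxidation genes 5 passed this test, all with the lateral effect below the ventral one, and the median over the list was -0.25, against 0.021 over all genes. Acadl gave -0.61 ± 0.13 (limma adjusted p = 0.00868), Vnn1 -0.86 ± 0.19 (0.0128) and Slc25a20 -0.52 ± 0.13 (0.0245). Pdk4, the kinase that turns off pyruvate dehydrogenase, and Acadm, the medium-chain acyl-CoA dehydrogenase, were named after their values were seen and gave -1.06 ± 0.25 (0.0182) and -0.63 ± 0.15 (0.0190). The count of 5 was 3 without ventral wild-type array 3, and also 3 without that array and lateral labelled-knockout array 3 together. The Slc25a20 call was lost without ventral wild-type array 1 (limma adjusted p = 0.0563) or 3 (0.0560), lateral wild-type array 2 (0.0571) or lateral labelled-knockout array 3 (0.0550), that of Pdk4 without lateral labelled-knockout array 2 (0.0516), that of Acadm without ventral wild-type array 3 (0.0511) and that of Acadl with the mean of its probe sets (0.266). Of the 12 smooth muscle markers 11 passed in the same direction, beside 6.51% of all genes, and the part of smooth muscle was not tested.

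Of the 19 fat cell markers 3 differed between the lobes in their effect, 2 with the lateral effect below and 1 above the ventral one. Slc2a4 gave -1.04 ± 0.11 (limma adjusted p = 1.04e-04) and Plin4 -0.67 ± 0.12 (0.00296), and both passed without any one array. Car3 gave 1.16 ± 0.30 (0.0291), a call lost without ventral knockout array 2 (0.0588), lateral wild-type arrays 1 (0.0634) or 2 (0.0620), or lateral labelled-knockout array 1 (0.0596), and with the mean of its probe sets (0.0515). Among the relatives of the lipid genes Cdh13 differed by -1.03 ± 0.18 (limma adjusted p = 0.00247).

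The levels of the genes in the 2 lobes were compared in wild-type arrays. The arrays of the 2 lobes do not share one distribution of values, and the median gene was 0.34 log2 units lower in lateral than in ventral wild-type arrays. The labels name no normalization run. If the lobes were normalized apart, lobe and normalization cannot be told apart. On the deposited values 5 of 9 genes passed, beside 68.1% of all genes. Lateral wild-type signal was lower by 0.99 for Cd36, 0.71 for Fabp4, 0.63 for Pparg and 0.60 for Plin2 (differences of -0.99, -0.71, -0.63 and -0.60) and higher by 0.55 for Ppard (limma adjusted p at most 7.33e-04). With each array centred on its median, Cd36 was -0.64 and Ppard 0.91, Fabp4 was -0.36, Plin2 -0.25 and Pparg -0.28, the last no longer passing (limma adjusted p = 0.0658), and Lpl passed as higher in lateral by 0.51 (0.0174). With quantile normalization over all arrays, Fabp4 at -0.19 and Plin2 at -0.16 did not pass (limma adjusted p of 0.258 and 0.153), Cd36 was -0.63 and Ppard 1.04, and Cpt1a passed as higher by 0.30 (0.0168), where the deposited values gave -0.21 (0.0673). Cd36 lower and Ppard higher in lateral thus held under all 3 scalings.

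By group means, the order of the levels from highest to lowest was ventral knockout, ventral wild type, lateral wild type and lateral labelled knockout for Fabp4. For Cd36 it was ventral knockout, ventral wild type, lateral labelled knockout and lateral wild type, the lateral pair differing by less than its spread. Ppard ran from lateral wild type through lateral labelled knockout and ventral wild type to ventral knockout, and Adipoq from ventral wild type through lateral wild type and lateral labelled knockout to ventral knockout. Cpt1a ran from ventral knockout through ventral wild type and lateral labelled knockout to lateral wild type, and Lpl from lateral wild type through ventral wild type and ventral knockout to lateral labelled knockout. Pparg and Plin2 ran from ventral wild type through ventral knockout and lateral wild type to lateral labelled knockout, and Ppara from ventral wild type through lateral wild type and ventral knockout to lateral labelled knockout. Adjacent groups of 1 lobe differed by the test for Ppard and Cpt1a, both in ventral prostate, and places that set a ventral against a lateral group depend on the scaling.

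The genes whose pattern was most like that of 4 of the members were ranked by Pearson's r over the 12 arrays after the mean of each lobe was taken away. The 12 points share genotype groups and any array-wide shift, and r is given as a description. For Adipoq these were Ficd (0.92), Top2a (0.91), Rsph14 (0.91) and Ifit3 (0.91), and for Pparg Cdk20 (0.91), Hdac9 (0.90), Asl (0.90) and Mfng (0.90). For Lpl they were Stac2 (0.94), Gbp2 (0.93), Qars (0.93) and Emc9 (0.93), and for Cd36 Ptgs2 (0.94), Krit1 (0.94), Rab13 (0.92) and Nfatc2ip (0.92). No fat cell marker or oxidation gene of the lists is among the 4 for any of them. Ptgs2, the inducible cyclooxygenase, was 1.01 log2 units higher in ventral knockout and -0.020 in lateral labelled knockout.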

How the data were processed

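Total RNA of mouse prostate was hybridized to 1-colour Affymetrix expression arrays, 12 in all. The authors deposited log2 signals, and the submitters' processing notes name Affymetrix Expression Console and RMA without versions. Over the 6 ventral arrays sorted values spanned a median of 0.0493 log2 units, over the 6 lateral 0.0786 and over all 12 0.388, so the lobes may have been normalized apart. Of 45101 probe sets, 34958 carried 1 gene symbol, 932 several and 9211 none in the platform annotation, and 34754 matched a RefSeq gene table (GRCm38.p6) by Entrez identifier. Each of 18194 genes was read by its brightest probe set by mean over the 12 arrays.

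A model of 4 group means over all 12 arrays was fitted (limma 3.58.1, R 4.3.3; lmFit and eBayes, 8 residual and 5.68 prior degrees of freedom), and p-values were adjusted by Benjamini-Hochberg over all 18194 genes, with a threshold of 0.05. Errors of differences are moderated standard errors. As RMA values come without detection calls, a group mean among the lowest 25% of the probe sets of its lobe was called low signal. The steps were tested on simulated data. The number of arrays limits the precision.

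Members and lists were chosen with earlier results of these data known. Named were all members, Med1 and the retinoid X receptors; per lobe and list of pathway or fat cell genes, up to 4 genes of smallest p among those passed whose genotypes do not overlap, or the 1 of smallest p; and the 4 genes most like Adipoq, Pparg, Lpl and Cd36. Of the lists, 4 fat cell, 5 oxidation, 2 partner, 4 lipid, 2 luminal and 1 seminal vesicle gene were not analysed here. Of 8 basal epithelial markers 0 passed in ventral prostate, and 1 (Krt5, lower) in lateral prostate, beside 9.08% and 5.03% of all genes.

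Replicate numbers are shared by the groups. Deviations from the group means of same-numbered arrays correlated at -0.0208, 0.174 and 0.0536 between ventral and at 0.0487, 0.0984 and 0.0113 between lateral genotypes, and between lobes at -0.0803 to 0.0709, so the numbers were not taken to pair the samples. Alternatives were the arrays of 1 lobe alone, the replicate number as a fixed block, genotype and number together as a random block across lobes, quantile normalization, median centring, removal of the dimmest 40% of genes, other handling of probe sets, a trended and robust variance, other thresholds and each array left out. The fit without ventral wild-type array 3 and lateral labelled-knockout array 3 together was chosen after seeing the data.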

Additional observations from a re-analysis of the deposited data

Results flagged for a closer look

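The knockout effect differed between the lobes, by a test of the difference itself (limma interaction, adjusted p under 0.05), for 1 of the 9 genes. It also did for 9 genes of the fat cell, oxidation and lipid lists, and for 9.31% of all genes. By list the counts were 3 of 19 fat cell, 5 of 23 oxidation, 2 of 29 lipid and 0 of 19 partner genes. Plin4 counts in both the fat cell and the lipid list. Among the cell type lists 11 of 12 smooth muscle, 7 of 12 fibroblast and matrix, 5 of 7 seminal vesicle and 0 of 9 luminal markers passed. The value is the lateral minus the ventral difference in log2 units. It was -0.8628 for Fabp4, with the lateral labelled knockout below and the ventral knockout above its wild type. For the fat cell markers it was -1.0394 for Slc2a4, -0.6746 for Plin4 and 1.1578 for Car3, which was further below wild type in the ventral than in the lateral lobe. For genes of the oxidation list it was -1.0553 for Pdk4, -0.8562 for Vnn1, -0.6268 for Acadm, -0.6078 for Acadl and -0.5211 for Slc25a20. All 5 were called higher in ventral knockout, though the ventral call of Acadm was lost with 11 of the 12 single arrays left out. The ventral call of Pdk4 was lost without ventral wild-type array 2 (limma adjusted p = 0.0523). That of Acadl was lost with the mean of its probe sets (limma adjusted p = 0.135). For Cdh13, which binds adiponectin, it was -1.0293.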

How the results depend on the processing

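Of 1769 repeats of single gene differences, 1581 kept direction and call, 31 gained and 127 lost the call, and 30 turned direction. The count of members called in ventral prostate (3) was 1 with the 6 arrays alone, 1 at 1.5-fold or more and 1 to 4 with an array left out. In lateral prostate (1) it was 0 with the replicate block, 0 with every probe set tested, 3 with a trended and robust variance, 3 at an adjusted p under 0.1 and 0 to 2 with an array left out. Between lobes (1) it was 0 with the mean of probe sets and 1 to 2 with an array left out. Without ventral wild-type array 3 and lateral labelled-knockout array 3 together, these counts were 1, 0 and 0. The replicate block left 2 members called in ventral prostate, 1 between lobes and 5 between wild-type lobes.

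Over all genes the ventral count of 1652 was 965 with the 6 arrays alone, 2704 at an adjusted p under 0.1, 634 at 1.5-fold or more, and 941 (without ventral wild-type array 3; 1033 without ventral wild-type array 1, 1086 without ventral knockout array 3) to 1760 with an array left out. The lateral count of 916 was 1509, 423 and 499 to 1168 in the last 3 of these settings (588 and 499 without lateral wild-type arrays 2 and 3, 513 without lateral labelled-knockout array 2). That between lobes, 1693, was 2726 at 0.1 and 1103 (without lateral wild-type array 3) to 1732 with an array left out.

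Differences that turned had not passed. With an array left out they spanned -0.017 to 0.22 for Pparg and 0.047 to 0.32 for Ppara between lobes, -0.076 to 0.19 for Cd36 lateral, -0.17 to 0.15 for Lpl ventral, -0.16 to 0.032 for Plin2 ventral, -0.044 to 0.011 for Plin2 lateral, -0.055 to 0.14 for Plin2 between lobes, -0.24 to 0.039 for Vnn1 lateral and -0.071 to 0.075 for Slc25a20 lateral. With the mean of probe sets, Ppara between lobes was -0.019, Ppard between lobes -0.040, Cpt1a lateral -0.019, Med1 lateral 0.045 and Slc25a20 lateral 0.018. Without the 2 arrays together, Ppara between lobes was -0.027 and Slc25a20 lateral 0.0082. With quantile normalization, Ppara was 0.19 and Cpt1a 0.30 between wild-type lobes, Plin2 lateral 0.027 and Slc25a20 lateral 0.062; with median centring these were 0.14, 0.14, 0.014 and 0.027, and Adipoq was 0.059 between wild-type lobes. The cause was not tested. Removal of dim genes dropped Adipoq and Pparg, which have no value there. Signal near the low mark limits what can be said of Adipoq, Lep, Cidea, Fgf21 and Slc27a2.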
